A study of Mus musculus with 9 samples.

Results

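Sp100, Sp110, Pml, Daxx, Trim21, Trim25 and Trim30a are interferon-inducible genes whose products sit in PML nuclear bodies or belong to the tripartite motif (TRIM) family of ubiquitin ligases. They were chosen by name, with earlier results of these data known, so their counts beside the shares of all genes are descriptions. All 7 were found among the 24342 uniquely named genes of the table. Expression was measured by RNA sequencing of mouse mammary tumour cell lines, in 9 libraries with 1 for each line and state. FPKM counts fragments per length of transcript and per number of fragments mapped. The lines came from FVB/N mice in which the MMTV promoter drives the neu oncogene in mammary epithelium. All 9 share that transgene. The labels give 5 libraries as Jak1 wild type and 4 as Jak1 knockout. For 45555, 47298 and 45566B both states were sequenced, named Wt and Cre in the titles, and these lines were treated with puromycin. Lines 33373 and 33377 are wild type only, and line 46295 is knockout only. The sources used here do not state whether a line or a knockout is a single clone, what the D6 in the title of 46295 means, or how old the mice were. No separate cultures of a line are named, so p-values measure only the spread between these libraries.

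JAK1 is a kinase bound to both type I and type II interferon receptors. On interferon binding it phosphorylates transcription factors such as STAT2. The complex ISGF3, which contains STAT2 and IRF9, binds interferon-stimulated response elements (ISRE), and gamma-activated sites (GAS) are the other common element of interferon targets. PML builds the nuclear bodies that bear its name, SP100 and DAXX are resident partners in them, and SP110 is a relative of SP100. TRIM21, TRIM25 and TRIM30a act on antibody-coated viruses, on RNA sensing and on inflammatory signalling, respectively.

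Promoter sequences show where the letters of such elements lie, and the stretches that hold a match are printed here to show it in its setting. Whether a match goes with the size of a difference was not tested. RefSeq promoters (build GRCm38.p6, the same assembly as mm10) reach from 250 bases before a start site to 50 bases after it, and all 7 genes matched, with 12 promoters. They were searched on both strands for the ISRE letters GAAANNGAAA, for the same letters with 1 more spacer base, GAAANNNGAAA (added after these promoters had been read), and for the GAS letters TTCNNNGAA. Of all 32851 promoters, 3.44% hold the ISRE letters, 2.75% the form with the longer spacer and 8.3% the GAS letters. Matches of the first 2 kinds were found for Sp100, Sp110, Trim21 and Trim30a, and capitals mark them in the lines that follow.
Sp100, 100 bases up to the start site, chr1:85649888-85649987, plus strand: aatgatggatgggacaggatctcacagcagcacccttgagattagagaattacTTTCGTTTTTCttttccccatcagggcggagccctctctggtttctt
Sp110, 30 bases, chr1:85598781-85598810, minus strand: tgagatcacTTTCATTTTTCttttcttgaa
Trim21, 30 bases, chr7:102565447-102565476, minus strand: ctgagagGAAACTGAAAGTGAAAtttggac
Trim30a, 100 bases up to the start site, chr7:104465194-104465293, minus strand: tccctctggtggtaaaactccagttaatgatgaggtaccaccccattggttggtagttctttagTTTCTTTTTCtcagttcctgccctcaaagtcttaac

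The Sp100 and Trim30a matches lie upstream of the annotated gene and begin 47 and 36 bases before the start site. Those of Sp110 and Trim21 lie in the 5′ UTR, and the Trim21 stretch holds 2 overlapping ISRE matches. Sp100 and Sp110 match only the form with the longer spacer. A second Trim30a promoter, in an intron of the gene, also holds an ISRE match, while another Sp110 promoter, farther upstream, holds none. None of the 3 letter patterns occurs in these windows of Pml, Daxx or Trim25, and the GAS letters occur in none of the 7 genes' windows. A match is a run of letters and not a measured binding site.

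In GENCODE vM21 (GRCm38) all 7 genes are protein coding. Sp110 (chr1:85576899-85598817, minus strand) and Sp100 (chr1:85649988-85709998, plus strand) flank Sp140, a further member of their family. Trim21 (chr7:102557921-102565486) and Trim30a (chr7:104409025-104465193) lie on chromosome 7, both on the minus strand, the second inside a cluster with its copies Trim30b and Trim30d and with Trim12c, Trim34a and Trim34b. Pml lies at chr9:58218076-58249786 (minus strand), Daxx at chr17:33909414-33915590 (plus strand) and Trim25 at chr11:88999376-89020293 (plus strand). Trim30a may share reads with its copies, which the authors' counting could have split. Trim30b reached at most 0.0663 FPKM and Trim30d at most 1.75 FPKM (33373), against 34.4 FPKM for Trim30a in that library. Sp100 and Sp110 each overlap a gene on the opposite strand at one end, and Pml overlaps a microRNA gene on the opposite strand. No source used here says that counting kept the strand.

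Jak1 itself was lower in each knockout than in its wild type, with 74.4 against 86.7 FPKM for 45555, 27.5 against 63.1 for 47298 and 14.2 against 16.1 for 45566B. It was at 19.4 in 33373, 54.6 in 33377 and 22.97 in 46295 knockout. The 45555 knockout thus held more Jak1 RNA than each wild-type library of the other lines, so a level over the whole gene checks the labels only weakly. The absolute number of fragments is unknown. Relative to 45566B wild type, the deepest library, the value of 1 fragment in genes of low FPKM put the others at 0.416 to 0.767 of its depth. Libraries 33373 and 33377 carry another column name form than the other 7, and some of the results that rest on them are also given without them. Epithelial markers did not run alike across the lines. Epcam, an adhesion molecule of epithelium, was below 1 FPKM in the 4 libraries of 45555 and 47298, at 2.36 in 33377, and between 420 and 720 in the other 4. Cdh1 was also below 1 FPKM in 45555 and 47298, and at 7.02 in 33377. Krt8 was below 1 FPKM in 45555, but at 38.5 in 47298 wild type, 157 in its knockout and 74.9 in 33377. Krt18 ran like Krt8, while Krt19 was highest in 47298 wild type (5.97 FPKM). Of 10 leukocyte markers, 9 were below 1 FPKM in every library, Ptprc and Cd3e among them. The exception was Cd68, a lysosomal protein not limited to leukocytes, at 0.426 to 106 FPKM.

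Sp100 had the lowest level of the 7 genes in the knockout libraries of 47298, 45566B and 46295, but not in that of 45555, where Sp110, Trim30a and Trim21 were lower. Its product is a chromatin-binding component of PML bodies. Wild-type 45555, 47298, 45566B, 33373 and 33377 held 10.6, 11.6, 18.5, 8.95 and 24.4 FPKM of it. The knockout libraries of 45555, 47298, 45566B and 46295 held 4.22, 0.506, 0.471 and 0.0299 FPKM. All 4 knockout libraries thus lay below all 5 wild-type libraries, and 45555 knockout was the highest of them. Within a line the wild-type level was 2.50 times the knockout level in 45555, 22.9 times in 47298 and 39.3 times in 45566B.

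Sp110, whose product carries the same kind of N-terminal domain as SP100, was low in wild-type 45555 (2.60 FPKM) and 47298 (2.56 FPKM), and higher in wild-type 45566B, 33373 and 33377, at 12.9, 6.78 and 6.36 FPKM. Its knockout levels were 0.620, 1.60 and 1.23 FPKM in 45555, 47298 and 45566B and 2.73 in 46295. The last of these exceeded both of the low wild-type libraries, so the groups overlapped over all lines but not within a line.

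Pml, the scaffold of the bodies, differed between the states in different directions among the lines. In 45555, 47298 and 45566B its wild-type levels were 14.4, 30.3 and 31.7 FPKM and its knockout levels 16.9, 22.3 and 13.1 FPKM. Lines 33373 and 33377 held 22.1 and 21.2 FPKM, and 46295 knockout 12.7. In 45555 the knockout library was the higher one, at 117% of the wild type, against 73.7% in 47298 and 41.4% in 45566B. The 2 groups overlapped. Pml had the highest FPKM of the 7 genes in each of the 4 knockout libraries, but in only 1 of the 5 wild-type libraries (47298).

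Daxx, which loads a histone variant together with ATRX, had the narrowest range. Wild-type libraries held 11.9, 13.7, 17.3, 19.0 and 15.4 FPKM in the order 45555, 47298, 45566B, 33373 and 33377, and knockout libraries 9.29, 11.0, 10.8 and 12.7 in the order 45555, 47298, 45566B and 46295. Each knockout library was below its own wild type, at 78.2%, 79.8% and 62.5% of it. Only 46295 knockout exceeded a wild-type library, that of 45555.

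**Figure D1:**
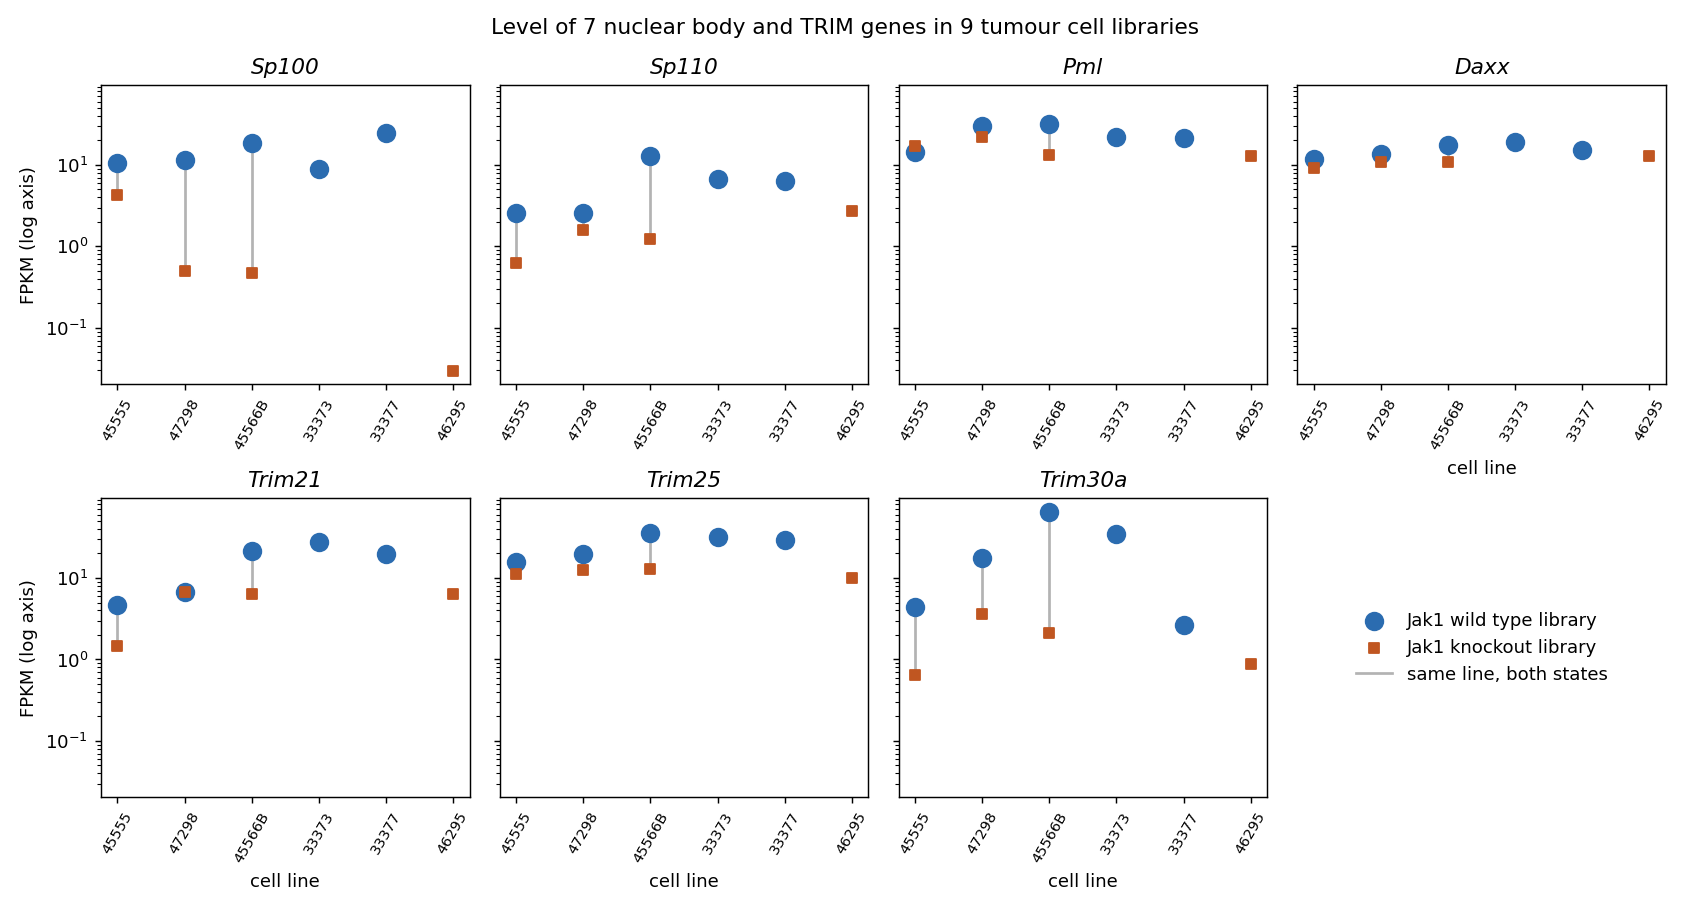
FPKM on a log axis for each of the 7 genes (panels) in 6 cell lines (x axis), with circles for Jak1 wild-type and squares for Jak1 knockout libraries and a grey line joining both states of a line. Sp100 and Trim25 are the 2 genes whose 4 squares all lie below all 5 circles.

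Among the TRIM genes, Trim25 separated the states most cleanly. TRIM25 is a ubiquitin ligase that acts with the RNA sensor RIG-I and with the antiviral protein ZAP. Its wild-type levels in the order 45555, 47298, 45566B, 33373 and 33377 were 15.6, 19.9, 36.2, 32.3 and 29.6 FPKM. Knockout levels were 11.1, 12.4 and 13.01 in the first 3 lines and 9.90 in 46295. The knockout levels were close together, between 9.90 and 13.01 FPKM, while wild-type levels spread 2.32-fold.

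Trim21 encodes a cytosolic receptor for antibody-bound viruses that is also a ubiquitin ligase. Its wild-type levels formed 2 sets, with 4.70 and 6.65 FPKM in 45555 and 47298 and 21.5, 27.8 and 19.7 in 45566B, 33373 and 33377. Knockout levels were 1.45 in 45555, 6.82 in 47298, 6.35 in 45566B and 6.28 in 46295. The pair of 47298 hardly differed, with the knockout at 102% of the wild type, while the knockout held 30.8% in 45555 and 29.5% in 45566B.

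Trim30a, known in macrophages as a brake on inflammatory signalling, was the most variable gene between wild-type lines. It stood at 4.35, 17.7, 65.4, 34.4 and 2.65 FPKM in 45555, 47298, 45566B, 33373 and 33377, a 24.7-fold range. Knockout libraries held 0.638, 3.64, 2.12 and 0.884 FPKM in 45555, 47298, 45566B and 46295. Within each line the knockout was the lower, by 6.81, 4.87 and 30.9 times. Wild-type 33377 lay below the 47298 knockout, so the groups overlapped over all libraries.

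The pairs comparison asked how the states differ inside lines 45555, 47298 and 45566B. Each of the 7 genes was lower in knockout on average, as were 51.4% of the 12063 genes tested. Of the 7, 5 (Sp100, Sp110, Daxx, Trim25 and Trim30a) were lower in all 3 lines, against 13.3% of all genes. No gene passed: limma with Benjamini-Hochberg adjustment called 0 of the 7 and 0% of all genes, and the adjusted p of every member was 0.762. That was the smallest adjusted p of any gene and was shared by 4016 genes. The unadjusted limma p of the 7 ran from 0.00858 (Sp100) to 0.208 (Pml). At an unadjusted p under 0.05, 4 of the 7 were lower (Sp100, Sp110, Trim25 and Trim30a), against 1.86% of all genes, and 406 genes of either direction reached that level.

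The largest differences were those of Trim30a and Sp100. On the log2(FPKM + 1) scale the log2 fold change of Trim30a was -2.71 with an SE of 0.62 (3 lines), and that of Sp100 -2.65 with an SE of 0.56. Their order turned at a pseudocount of 0.1, which gave -3.24 for Trim30a and -3.53 for Sp100. Sp110 followed at -1.42 (SE 0.49), Trim21 at -0.93 (SE 0.38) and Trim25 at -0.83 (SE 0.25). Pml had -0.47 (SE 0.32) and Daxx -0.42 (SE 0.16). The median over the 7 genes was -0.93 and over all genes tested -0.01.

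**Figure D2:**
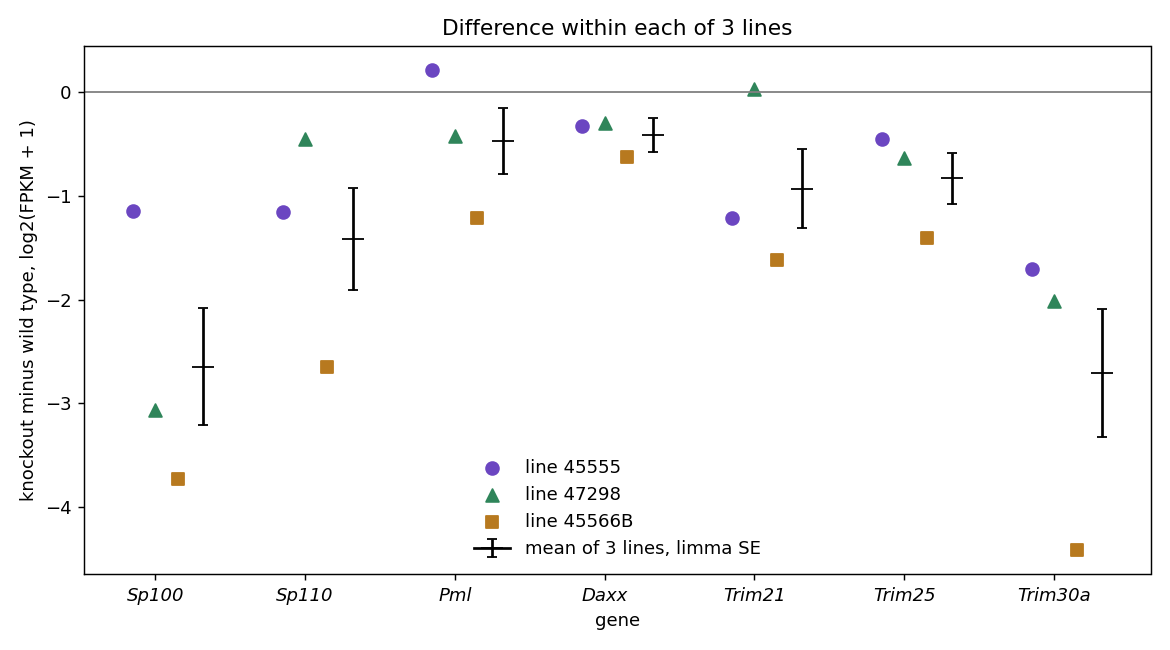
Knockout minus wild type in log2(FPKM + 1) for each gene (x axis) in lines 45555, 47298 and 45566B, with the mean of the 3 lines and its limma SE in black. Line 45566B has the lowest point for each gene, and the 2 points above 0 are Pml in 45555 (0.21) and Trim21 in 47298 (0.03).

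The 3 lines did not contribute alike. In 45566B, 6 of the 7 genes (all but Daxx) were lower by at least 1 on that log2 scale, where 2.17% of genes were. In 45555 the count was 4 (Sp100, Sp110, Trim21 and Trim30a) against 6.68%, and in 47298 it was 2 (Sp100 and Trim30a) against 11%. Whether the lines differ was not tested, with 1 pair each. Line 47298 also differed most between its states in the summed fibroblast and luminal markers. The sum of 8 fibroblast markers was 5593 FPKM in its wild-type and 355 in its knockout library, and that of 5 luminal markers 97.7 and 408. In 45566B these sums were 1.07 and 1.31 FPKM and 2157 and 2296, and in 45555 they were 5235 and 3971, and 6.63 and 6.86. Within 47298 the markers of a list did not all move together. Krt8 and Krt18 were higher in its knockout, but Krt19 fell from 5.97 to 0.307 FPKM. Col1a1, Col1a2, Col3a1, Pdgfra and Pdgfrb were lower, but Dcn rose from 12.2 to 27.3 FPKM. Epcam, Cdh1, Lum and Fap were below 1 FPKM in both states. The part of these markers in the differences was not tested. In bulk RNA, fewer cells of a type and less RNA per cell cannot be told apart.

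The panel comparison set the knockout libraries 45566B and 46295 against the wild-type libraries 45566B, 33373 and 33377, and it shares the 45566B pair with the pairs comparison. All 7 genes were lower in each knockout library than in any wild-type library of this panel, as were 6.43% of the 11838 genes tested. Sp100 passed the filter on low values only through its wild-type mean (17.3 against 0.250 FPKM), so its difference was partly fixed by passing. Its log2 fold change was -3.79 (SE 0.49; limma adjusted p = 0.213), and -5.88 with a pseudocount of 0.1 in place of 1. Trim21 had -1.70 (SE 0.25; adjusted p = 0.307), Trim25 -1.44 (SE 0.24; adjusted p = 0.410) and Trim30a -3.08 (SE 1.29; adjusted p = 0.999). Sp110, Pml and Daxx had -1.69 (SE 0.44), -0.88 (SE 0.27) and -0.51 (SE 0.23), each with an adjusted p of 0.999. limma called 0 of the 7 and 0% of all genes, with 5 of the 7 lower at an unadjusted p under 0.05 against 1.33% of all genes (215 genes in either direction). Without 33377, where Trim30a was low, its log2 fold change was -4.32 (limma adjusted p = 0.225), and without both 33373 and 33377 it was -4.78 (adjusted p = 0.373). For the other 6 genes the values without both lines ran from -3.99 (Sp100) to -0.52 (Daxx). Over all panel libraries, the 6 tested fibroblast markers of 8 were lower in knockout (median -2.67) and the 4 tested luminal markers of 5 higher (median 1.48), none passing, and their part in the result was not tested. The fibroblast markers Col1a2, Col3a1, Pdgfra, Pdgfrb and Dcn also passed the filter only through wild type.

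Over all 9 libraries, which hold those of both other comparisons, the 4 knockout libraries lay below the 5 wild-type ones for 2 of the 7 genes, Sp100 and Trim25. This was so for 0.303% of the 12198 genes tested. Sp100 ranked 2nd and Trim25 14th by p among all genes, with log2 fold changes of -3.00 (SE 0.49; limma adjusted p = 0.851) and -1.08 (SE 0.26; adjusted p = 1.000). With a pseudocount of 0.1 the value for Sp100 was -4.39. The other 5 ran from -2.57 (Trim30a) to -0.45 (Daxx). This fit had no block, so it ignored that 3 lines gave both states. With line as a random block, Sp100 had -2.79 (limma adjusted p = 0.134) and Trim25 -0.93 (adjusted p = 0.409). Without 33373 and 33377, Trim30a joined the genes with no overlap, which made 3 of the 7. The share of all genes with no overlap was not computed for this smaller set, where it is easier to reach. Without both lines, the log2 fold changes of the 7 in the fit with no block ran from -2.93 (Sp100) to -0.35 (Daxx). Trim21 moved from -1.33 to -0.81. Again 0 of the 7 and 0% of genes passed, and 6 of the 7 (all but Pml) were lower at an unadjusted p under 0.05, against 0.959% of all genes (144 genes in either direction).

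**Figure D3:**
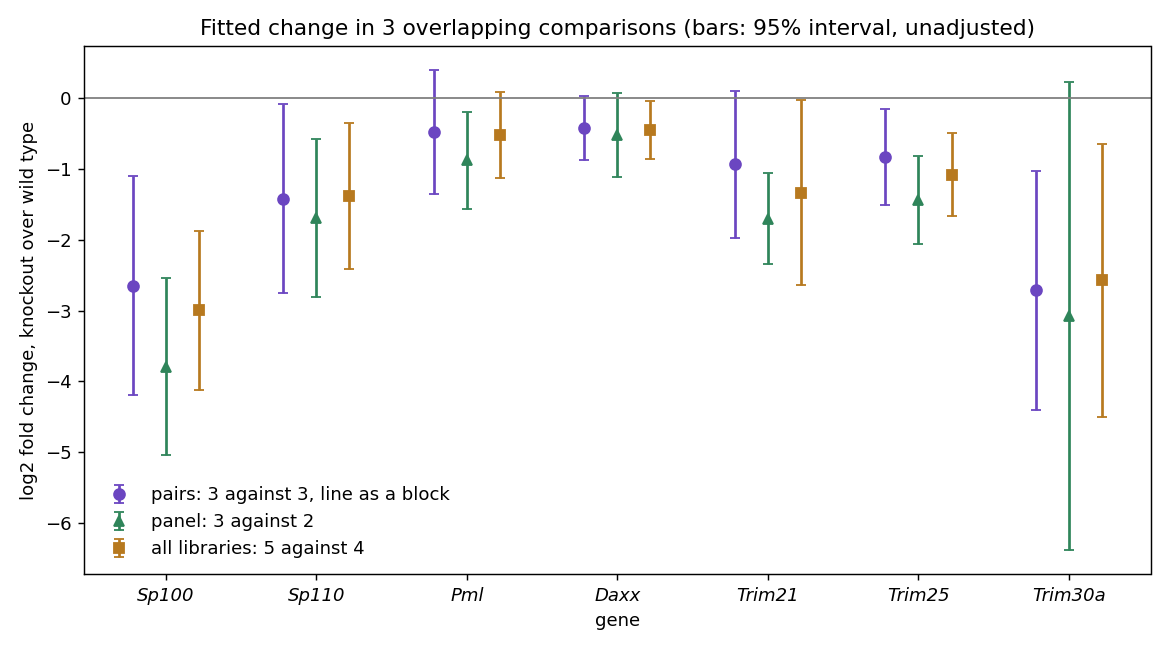
Log2 fold change of knockout over wild type on the log2(FPKM + 1) scale for each gene (x axis) in the pairs, panel and all-library comparisons, with unadjusted 95% intervals. Each of the 21 points lies below 0, and the comparisons share libraries. Of all genes tested, 51.4%, 47.7% and 49.8% were below 0 in the pairs, panel and all-library comparisons.

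Across the 9 libraries, Pearson correlations of log2(FPKM + 1) between the 7 genes ran from 0.461 (Sp100 with Trim21) to 0.936 (Daxx with Trim21). Each gene correlated with the mean of the other 6 at 0.683 (Sp100) to 0.966 (Trim25). Genes outside the group with the profile most like its mean, among those averaging 1 FPKM or more, were Irgm2 (0.979), Oas1b (0.978), Helz2 (0.974), Mx2 (0.971) and Xaf1 (0.970), all interferon-stimulated genes. These are descriptions over 9 libraries that share lines and genotype.

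Other genes of nuclear bodies lay on both sides of 0. Of 21 listed partners of PML bodies, all tested, 9 were lower and 12 higher in the pairs comparison, 0 passed, and the median log2 fold change was 0.04, against -0.01 over all genes. Isg20, an interferon-induced exonuclease found in nuclear bodies, was the only one lower in all 3 lines (-0.82, SE 0.22; limma adjusted p = 0.762), but the 46295 knockout held 81.0 FPKM of it, above the highest wild-type library (33373, 40.2 FPKM). Cbx5, a heterochromatin protein that binds SP100, had 0.48 (SE 0.18). In the panel comparison the median was 0.16, with 6 lower and 15 higher and 0 passing, and Atrx, whose product works with DAXX, had 0.36 (SE 0.25). Sp140, named after its values were seen because it lies between Sp110 and Sp100, went from 10.6 FPKM (wild type) to 3.78 FPKM (knockout) for 45555, from 8.38 to 11.3 for 47298 and from 13.2 to 9.86 for 45566B. The 46295 knockout held 16.1 FPKM of it, above every wild-type library.

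Further TRIM genes were kept in 2 lists. Of 12 other interferon-responsive TRIM genes, 10 were measured and 5 tested in the pairs comparison. All 5 were lower on average (51.4% of all genes were), 3 of them in all 3 lines (13.3% of all genes), 0 passed and the median was -0.21. Trim12c, a neighbour of Trim30a, was at 9.43 and 3.00 FPKM in 45555, 16.6 and 11.7 in 47298 and 18.2 and 4.89 in 45566B (wild type first; -1.19, SE 0.30). Trim34a, from the same cluster, had -1.01 (SE 0.27). Its knockout libraries in 45555, 47298 and 45566B held 0.182, 0.662 and 0.743 FPKM, below the filter of 1 FPKM. It thus passed the filter only through wild type, and its difference was partly fixed by passing. Of 23 TRIM genes not chiefly known as interferon targets, 10 were lower and 13 higher, with 0 passing and a median of 0.03. Trim59 was the one with the smallest p and was higher in knockout, at 0.81 (SE 0.22). In the panel comparison 4 of 6 tested genes of the first list and 13 of 23 of the second were lower (47.7% of all genes were). Again 0 passed, and the medians were -0.69 and -0.15. Trim34b, in the first list, was at 0.608 and 0.878 FPKM in the 45566B and 46295 knockouts, so it passed that filter only through wild type.

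**Figure D4:**
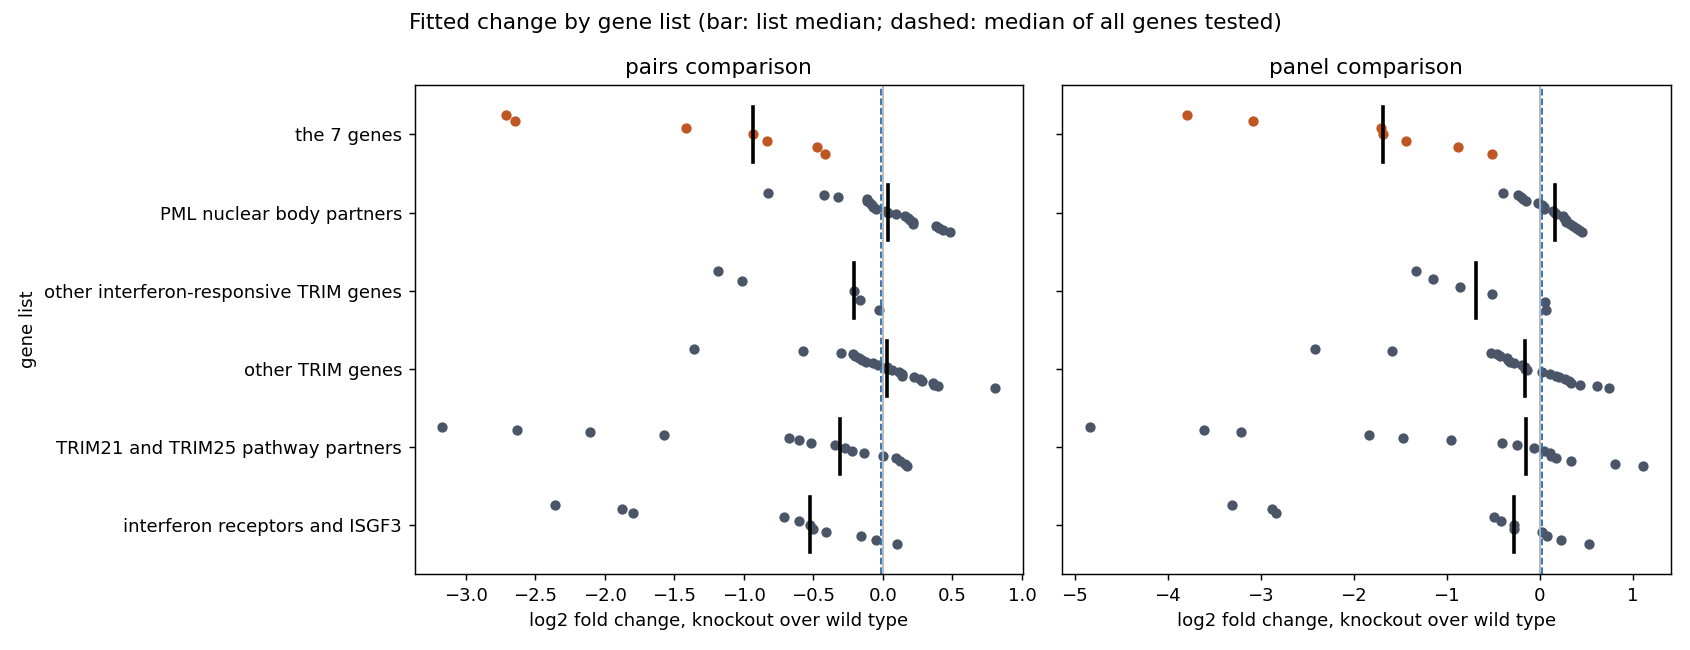
Log2 fold change of each tested gene (points) by gene list in the pairs (left) and panel (right) comparisons, with list medians as black bars and the median of all genes tested as a dashed line. The median of the 7 genes is -0.93 in the pairs and -1.69 in the panel comparison, and that of the PML body partners 0.04 and 0.16.

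Genes that act upstream of the group were mostly lower in knockout as well. Of 11 genes for interferon receptors, their kinases (Jak1 included) and interferon transcription factors, 10 were lower in the pairs comparison (8 in all 3 lines), 0 passed and the median was -0.52. Of all genes tested there, 51.4% were lower on average and 13.3% in all 3 lines. For Irf9, the DNA-binding subunit of ISGF3, knockout and wild type held 1.78 and 13.3 FPKM (45555), 7.35 and 23.4 FPKM (47298), and 4.03 and 43.7 FPKM (45566B). The value for Stat2 was -1.87 (log2 fold change, SE 0.28; limma adjusted p = 0.762). Among 16 partners of TRIM21 and TRIM25, 12 were lower, 8 in all 3 lines, 0 passed and the median was -0.31. Ddx58, which encodes RIG-I, had -1.57 (SE 0.34), and Isg15, the ubiquitin-like modifier, -2.63 (SE 0.38). In the panel comparison 7 of the 11 and 9 of the 16 were lower, as were 47.7% of all genes, and 4 and 7 were higher. Of both lists 0 passed, with medians of -0.28 and -0.15. The genes within a list differed widely. Irf9 had -3.31 (SE 0.22) and Isg15 -3.61 (SE 0.29), each with a limma adjusted p of 0.0749, the smallest of any gene in that comparison. Of 9 interferon genes, Ifnb1 was listed at 0 in the 4 libraries of 45555 and 47298 and stood at 2.06 FPKM in 45566B wild type and 2.73 FPKM in its knockout, at 0.348 in 33373, 0.168 in 33377 and 0.722 in 46295.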

How the data were processed

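The values deposited by the authors are FPKM for each gene symbol. The submitters' processing notes name TopHat2 2.1, Cufflinks 2.2, Cuffnorm, cutadapt and the build mm10, without their roles. Annotation, filters and scaling option: not given in the sources used here. All values came from the table of 9 libraries, and the table of 4 held identical values. The 4 rows with a repeated name were left out.

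Genes whose mean over a comparison's libraries reached 1 FPKM were tested on log2(FPKM + 1), which understates changes of low genes, with limma 3.58.1 in R 4.3.3 (prior variance following the mean, two-sided, Benjamini-Hochberg over all genes, threshold 0.05). All 7 genes passed this filter in each comparison. The pairs comparison had the line as a block: libraries of a line, paired by the labelled line, deviated together (correlations 0.700, 0.400 and 0.804 for 45555, 47298 and 45566B). The panel and all-library fits had no block. No count test fits FPKM. The test and the motif search were checked on simulated data.

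Members, lists, named-gene rule (per list, the 3 smallest p in the pairs and 2 in the panel comparison) and tests were chosen with earlier results of these data known. Alternatives varied pseudocount, filter, scaling, variance prior, block and libraries.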

Additional observations from a re-analysis of the deposited data

Results flagged for a closer look

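Pml differed by 0.21 on the log2(FPKM + 1) scale within line 45555 (knockout minus wild type), while it differed by -0.42 in 47298 and -1.21 in 45566B. Trim21 differed by 0.031 within 47298, against -1.22 in 45555 and -1.62 in 45566B. In both cases 1 line had the opposite sign to the other 2, and the difference between lines was not tested. Trim21 in the 45555 knockout, at 1.45 FPKM, stood far below the other 3 knockout libraries, which held 6.28 to 6.82 FPKM: its gap took up 0.938 of the group's range on the log2 scale. Of 14 groups looked at in this way, chance flags about 1 in 20.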

How the results depend on the processing

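Each of the 7 genes kept a negative log2 fold change and an adjusted p above 0.05 in every alternative run, including all rescaled libraries and the fits without 33373 and 33377. Sp100 came nearest to the threshold, with adjusted p values of 0.0586 to 1.000 over the alternatives of the all-library comparison. The lowest value came from leaving out the 45555 knockout, the knockout library with the highest Sp100 level (4.22 FPKM). The pairing is part of the pairs comparison, and with no replicate block 0 of the 7 and 0 genes in all passed, as with the block. The count of all genes passing was 0 in each comparison. It was 0 to 6 when 1 line was left out of the pairs comparison (6 without 47298), 0 to 1 when 1 library was left out of the all-library comparison (1 without the wild-type or knockout library of 45555 or without 45566B knockout), and 4 with a pseudocount of 0.1 in the panel comparison. The cause of these changes was not tested. None of the 7 genes was among the genes that passed. With 1 of the 9 libraries left out, 2 to 4 of the 7 genes had all knockout libraries below all wild-type libraries. The count was 4 without 46295 knockout, where Sp110 and Daxx joined Sp100 and Trim25. The share of all genes was not computed for these smaller sets, where fewer libraries make such a separation easier. Fits without 1 line rest on 2 lines, and levels near 0, such as Sp100 in knockout, rest on few fragments whose number is unknown.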
